A study of Mus musculus with 2 samples.

Results

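Malat1, Neat1, Miat, Meg3, Rian, H19, Gas5, Snhg11 and Tug1 are 9 widely studied long noncoding RNAs of the mouse. They were chosen by name, with earlier results of these data known. Their levels were compared between 1 library of retinopathy eyeballs and 1 library of control eyeballs. These RNAs are 9 of 47644 genes in the deposited table, in which 8985 genes are of a long noncoding type in the GENCODE M21 annotation. Snhg11 was the 1 member whose symbol stood in the table. The other 8 were found through their Ensembl identifiers, and the spans of all 9 equalled those of GENCODE M21. Snhg11 is typed there as protein-coding, so 8 members lie within the annotated long noncoding class. Both groups were whole eyeballs of C57BL/6 mice. The retinopathy group is the oxygen-induced retinopathy (OIR) model, in which pups entered high oxygen on day 7, stayed there for 5 days, returned to room air and gave their eyes on day 17. The control group carries no treatment in its labels. The sources used here do not say on which day control eyes were taken, which sex the animals were or how many eyes were pooled. The series set out to study what underlies lasting visual impairment in this model.

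Long noncoding RNAs are transcripts made like messenger RNAs but not known to act through a protein. Some build or occupy nuclear bodies, as Neat1 does for paraspeckles and Malat1 for nuclear speckles. Others come from imprinted domains, where 1 parental copy is transcribed, or carry small nucleolar RNAs (snoRNAs) and microRNAs in their introns or exons.

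Gene-assigned reads numbered 20378793 in OIR and 15741235 in the control. Levels are given as FPKM, fragments scaled to transcript length and library size, as deposited by the authors. A difference below is that of log2(FPKM + 1), OIR minus control, and a ratio is that of the shares of reads, OIR over control, with its exact 95% interval (Clopper-Pearson). The intervals cover counting error only, since reads are not independent molecules, and with 1 library per group no difference has a replicate check. Genes that reached 1 FPKM in at least 1 library, 15883 in all and 1117 of them long noncoding, are called tested, and 2-fold calls go by size alone. In whole eyeballs fewer cells of a type and less RNA per cell cannot be told apart.

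The libraries differed in several ways beside these RNAs. Reads of 11 of 11 rod, 8 of 8 cone and 20 of 20 inner retinal neuron markers were found in both, so the eye label held. The summed level of the corneal and conjunctival epithelium markers was 1596 FPKM in OIR and 676.8 in the control, that of lens markers 79430 and 112753, and that of inner retinal neuron markers 1321 and 1670. Mitochondrial ribosomal RNA was far higher in OIR, with 10696 against 520 reads for mt-Rnr2. The X-inactivation RNA Xist had 28 OIR reads against 3203 control reads, while reads of the Y-linked gene Ddx3y, chosen after the Xist value was seen, were found in both libraries, 1298 and 675. Sex composition and the model cannot be told apart here, and all 9 RNAs lie on autosomes. The part of these differences in the results below was not tested.

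The 9 RNAs were all well measured, at 6.36 FPKM or more in both libraries, and together took 0.341% of reads in OIR (exact binomial interval 0.338 to 0.344) and 0.273% in the control (0.270 to 0.276). Malat1 and Meg3 made up 71.1% of these reads in OIR and 66.9% in the control. The whole annotated long noncoding class took 1.458% of reads in OIR and 1.209% in the control, so its share was higher in OIR too. The 8 members in that class held 20.4% of its reads in OIR and 19.2% in the control. H19 was at least 2-fold higher in OIR, 1 of 9, against 3.07% of tested genes and 3.22% of tested long noncoding genes. No member was at least 2-fold lower, against 0.718% of tested genes and 0.716% of tested long noncoding genes. Neat1 and H19 passed 1.5-fold upwards, which 9.11% of tested genes and 15% of tested long noncoding genes also did, and Malat1 stood just under it.

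The set held 7 positive values and 2 negative ones, and 64.9% of tested genes and 70.3% of tested long noncoding genes also lay above 0, a share to set beside each such count below. The median difference was 0.18, beside 0.11 for all tested genes, 0.21 for tested long noncoding genes, and 0.11 for the 108 long noncoding genes at least as abundant as the lowest member. Thus the middle of the set lay close to that of its class, and 3 RNAs, H19, Neat1 and Malat1, stood above 98.7%, 94.5% and 83.8% of tested long noncoding genes. Gas5 and Rian stood at the other end, above 12.9% and 16.1% of them. The counting interval excluded 1 for all 9, from above for 7 and from below for 2. At these depths it did so for 51.5% of tested genes, 36.7% above and 14.7% below, so such an interval is common in this pair of libraries. The direction of Snhg11 turned negative under 3 of 11 alternatives, the authors' factors and centring by either length, and those of Meg3, Miat and Tug1 under 1, centring by deposited gene length. Those of the other 5 kept their sign under all 11. Of these 11, summing rows with a member's symbol could change no value, as each symbol had 1 row. Adding the rows inside a member's span left every difference as printed.

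**Figure D1:**
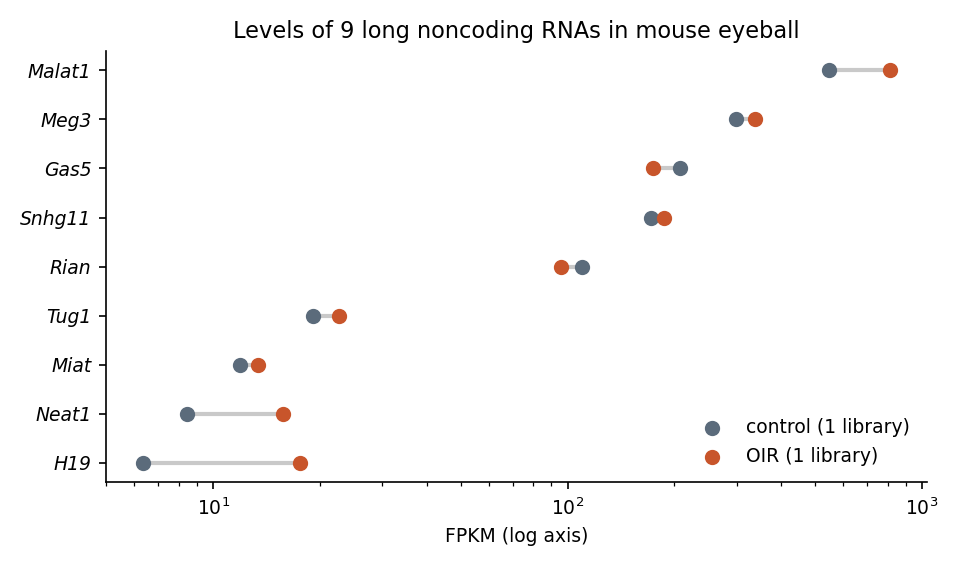
FPKM of each RNA in the control library (grey) and the OIR library (orange) on a log axis, 1 point per library and no error bar because each group is 1 library. H19, Neat1 and Malat1 have the widest gaps, and Gas5 and Rian are the RNAs with the OIR point to the left.

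**Figure D2:**
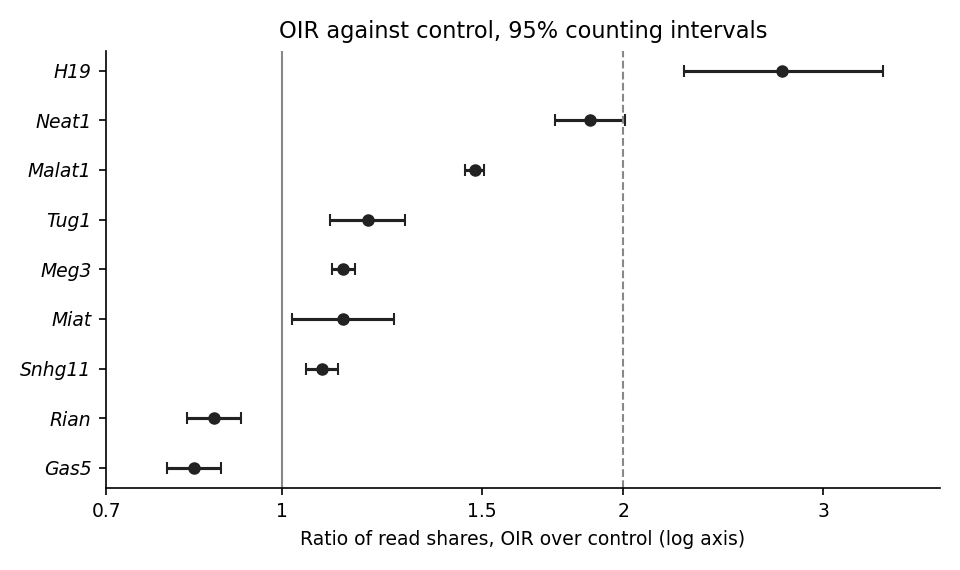
Ratio of read shares, OIR over control, on a log axis, with bars for the 95% counting interval, a solid line at 1 and a dashed line at 2. The H19 interval lies wholly above 2, that of Neat1 ends at 2.01, and the Snhg11 point, at 1.08, is among those whose side of 1 depends on the scaling.

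Malat1 and Neat1 are neighbours on the minus strand of chromosome 19. Malat1 (ENSMUSG00000092341, chr19:5795690-5802672, mm10) makes an abundant RNA of nuclear speckles, the stores of splicing factors. It counted 30784 reads in OIR against 16074 in the control (809.1 and 546.9 FPKM). It was the most abundant of the 9 in both libraries and ranked 52 and 92 among all genes by FPKM. Its ratio was 1.48 (1.45 to 1.51) and its difference 0.56.

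Neat1 (chr19:5824708-5845478) is the scaffold of paraspeckles, nuclear bodies that hold RNA and RNA-binding proteins. Its reads numbered 2660 in OIR against 1099 in the control (15.8 and 8.44 FPKM), which makes a ratio of 1.87 (1.74 to 2.01) and a difference of 0.83. Neat1 is known to have a short form with a poly(A) tail and a long form without, and the gene-level table does not separate them. Reads of Neat1 per read of Malat1, a measure that no scaling of the libraries touches, were 0.0864 in OIR and 0.0684 in the control, 1.26 times as many (counting interval 1.18 to 1.36). So the smaller of these neighbours in level showed the larger difference.

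The long form of Neat1 and the main form of Malat1 share an unusual end. It is cut by RNase P rather than given a poly(A) tail, and a pair of U-rich stretches folds with an A-rich tract into a triple helix that protects it. These ends are shown because a library made by poly(A) capture and one made without it read such RNAs differently, and the labels name no capture step. In the annotated transcripts (GENCODE M21, GRCm38, DNA letters in the sense direction) the last 100 bases up to the end of the A-rich tract read as follows, with U-rich stretches and tract in capitals. The Malat1 stretch is chr19:5795982-5796081 and the Neat1 stretch chr19:5824708-5824807.
Malat1: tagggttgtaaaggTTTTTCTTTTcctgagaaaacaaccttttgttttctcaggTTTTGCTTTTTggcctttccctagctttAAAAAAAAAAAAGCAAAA
Neat1: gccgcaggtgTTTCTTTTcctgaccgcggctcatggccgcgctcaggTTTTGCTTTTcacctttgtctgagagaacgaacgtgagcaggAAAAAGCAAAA
The Neat1 transcript stops at its tract. That of Malat1 is annotated for 292 bases more, and the 60 bases just after its tract (chr19:5795922-5795981) hold the start of the tRNA-like small RNA that RNase P releases.
Malat1 after the tract: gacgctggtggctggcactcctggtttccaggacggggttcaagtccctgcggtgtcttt

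Genes around Malat1 and Neat1 were read beside them. Of 14 tested genes of the locus list, Malat1 and Neat1 included, 12 lay above 0, with a median of 0.40, or 0.32 without these RNAs. None passed 2-fold either way, though Slc25a45, a mitochondrial carrier gene with a ratio of 2.25 (1.40 to 3.75) from 70 and 24 reads, did so with a pseudocount of 0.1 or 0.01. Frmd8, the gene next to Neat1, which encodes a partner of the iRhom shedding machinery, had 382 and 160 reads and a ratio of 1.84 (1.53 to 2.23). Reads of Neat1 per read of Frmd8 were 6.96 and 6.87 in OIR and control, a ratio of 1.01 (0.832 to 1.24). Sssca1 had the lowest difference of the locus, -0.08, and Neat1 the highest. Rela, which encodes the p65 subunit of NF-kappaB, had a difference of 0.47.

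Transcripts of proteins of the bodies these RNAs occupy had lower median differences than the RNAs. The 30 paraspeckle protein genes had a median of 0.13, with 22 above 0 and none past 2-fold, and that median was -0.01 at its lowest, below 0 under the authors' scaling factors and within implied-length bins. Rbm4b and Rbm14 had the highest values in the list, 0.44 and 0.41, and Rbm7 the lowest, -0.22. The 30 nuclear speckle and splicing genes had a median of 0.19, with 25 above 0, led by the splicing regulator Tra2a at 0.57. Genes of RNA cleavage and Malat1-type end processing, among them the protein subunits of RNase P, had a median of -0.09 over 16, with Rpp25 at -0.61 and Pop7 at -0.58. Mettl16, whose protein binds the Malat1 triple helix, stood at 0.19.

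Entries of the list of RNAs without a poly(A) tail and of ribosomal RNA lay on both sides of 0. The 7S K RNA Rn7sk, an inhibitor of transcription elongation, had 168 OIR and 180 control reads, and Rpph1, the RNA of RNase P, 65 and 71, for ratios of 0.721 (0.581 to 0.895) and 0.707 (0.497 to 1.00). The ribosomal RNA entries of the list, mt-Rnr1, mt-Rnr2, Gm26917 and Lars2, were 15.1 to 23.0 times higher in OIR. Lars2 is a protein-coding gene, listed because its span is known to take reads of ribosomal RNA. Malat1 and Neat1 sat between the small structural RNAs and ribosomal RNA, a range too wide to set them apart. All tested genes had quartiles of the difference at -0.09 and 0.31, so most of them lay in that range too. The part of the RNA selection step in the values of Malat1 and Neat1 was not tested.

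Gene lists linked to these RNAs in other tissues were read beside them. Hypoxia is known to raise Neat1 and Malat1 in some cells, and of 30 hypoxia-induced genes 28 lay above 0, 5 passed 2-fold upwards and the median was 0.51. Vegfa, the growth factor of new vessels, had 9847 and 2545 reads and a difference of 1.57, Adm 3.00, and Stc2 1.64. Neat1 is also a target of p53, and of 16 tested p53 targets 12 lay above 0 with a median of 0.18. Cdkn1a, the cell cycle inhibitor p21, was the 1 past 2-fold in that list, at 1.43. All 8 endothelial and 8 of 8 microglial and macrophage markers lay above 0, with medians of 0.61 and 0.50, and summed levels of 132.8 and 66.3 FPKM in OIR against 83.4 and 41.2 in the control. Other marker lists lay on both sides of 0. Among them, medians were 1.39 for erythrocytes, 1.32 for corneal and conjunctival epithelium, and 0.58 for pericytes and smooth muscle. Lens stood at -0.56, Muller glia and astrocytes at -0.43, and inner retinal neurons at -0.34. The part of any of these gene lists or cell types in the values of Malat1 and Neat1 was not tested.

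Miat, also called Gomafu (chr5:112213228-112229395, minus strand), is a nuclear RNA of neurons that forms its own foci. It counted 914 reads in OIR against 624 in the control (13.4 and 11.9 FPKM), for a ratio of 1.13 (1.02 to 1.26) and a difference of 0.17. The values of the pair of libraries lay close together, and within bins of deposited length the difference was -0.12. Miat is known for repeats of the letters TACTAAC, which match the intron branch point and bind the splicing factor SF1. Searched on the sense strand, a Miat transcript of 8758 bases held 6 copies, a number reached by 2 of 13374 long noncoding genes in their longest transcript, while 4.58% of those genes held at least 1. The stretches that carry them are shown because Miat is known for them, with each copy in capitals (GRCm38, chr5:112217309-112217460 and chr5:112216752-112216812).
Miat repeats, upstream: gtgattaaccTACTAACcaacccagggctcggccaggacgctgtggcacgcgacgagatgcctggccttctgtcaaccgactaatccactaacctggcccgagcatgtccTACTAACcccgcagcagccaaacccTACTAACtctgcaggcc
Miat repeats, downstream: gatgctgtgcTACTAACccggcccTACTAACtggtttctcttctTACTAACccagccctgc
Sf1, which encodes that splicing factor, had 4216 and 2347 reads and a difference of 0.47, the next highest after Tra2a in the speckle list. Inner retinal neuron markers, read here because Miat is known from neurons, lay below 0 in 17 of 20 cases with a median of -0.34.

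Meg3 and Rian lie on the plus strand of the imprinted Dlk1-Dio3 domain of chromosome 12, where the maternal copy makes noncoding RNAs and the paternal copy the proteins Dlk1, Rtl1 and Dio3. Meg3 (chr12:109541001-109571726), known as a growth-restraining RNA, counted 18584 reads in OIR against 12670 in the control (337.4 and 297.8 FPKM). Its ratio was 1.13 (1.11 to 1.16) and its difference 0.18, or -0.10 within deposited-length bins. Rian (chr12:109603940-109661716), a host of many snoRNAs also called Meg8, had 2740 and 2429 reads (95.6 and 109.7 FPKM), for a ratio of 0.871 (0.825 to 0.921) and a difference of -0.20.

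These RNAs, which are thought to be made from the same strand of the same domain, therefore lay on opposite sides of 1. Reads of Meg3 per read of Rian were 6.78 in OIR and 5.22 in the control, 1.30 times as many (1.23 to 1.38), whatever the scaling. Mirg, the microRNA host further along, had 139 and 129 reads and a ratio of 0.832 (0.650 to 1.07), nearer to Rian than to Meg3. On the paternal side Dio3, which inactivates thyroid hormone, had 87 and 102 reads and a difference of -0.45, and Dlk1 63 and 14 reads and a difference of 0.81. Rtl1 had 40 and 30 reads and was under the level filter. Over the 7 tested genes of the domain the median was -0.08, with 3 above 0 and none past 2-fold. Dlk1, whose ratio of read shares was 3.48 (1.93 to 6.72) at a low level, passed it with a pseudocount of 0.1 or 0.01 and as CPM.

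H19 (chr7:142575529-142578143, minus strand) is a maternally expressed imprinted RNA, abundant in the fetus and, after birth, chiefly in skeletal muscle. It counted 454 reads in OIR against 127 in the control (17.6 and 6.36 FPKM), the largest ratio of the set. The ratio was 2.76 (2.26 to 3.39) and the difference 1.33. H19 was the least abundant of the 9 by FPKM in the control and ranked above Neat1 and Miat in OIR. The difference ranged from 1.20 to 1.46 over the 11 alternatives, so it passed 2-fold in each. In the authors' deposited table its log2 fold change is 1.33, on another scale than the difference here, which was 1.20 with the authors' factors. That table sets 1 library against 1, and H19 is not marked as significant there.

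H19 shares its enhancers with Igf2, a growth factor gene expressed from the paternal copy. Igf2 had 1620 and 868 reads, a ratio of 1.44 (1.33 to 1.57) and a difference of 0.51. Reads of H19 per read of Igf2 were 0.280 in OIR and 0.146 in the control, 1.92 times as many (1.55 to 2.37), so the larger ratio of H19 does not hang on the scaling. Nctc1, a noncoding RNA near the muscle enhancer of the domain, had 24 and 7 reads. In the list of this domain and the wider imprinted network, H19 was the 1 of 25 tested genes past 2-fold, 16 lay above 0, and the median was 0.10, or 0.09 without H19. That median was -0.02 at its lowest and turned negative when centred on all tested genes, with the authors' factors, and per reads outside crystallin, mitochondrial and ribosomal RNA genes. Kcnq1, a potassium channel gene, had a difference of 0.99 from 53 and 14 reads. Its ratio, 2.92 (1.60 to 5.71), was above that of H19 with an interval that holds it, and Kcnq1 also passed 2-fold with either smaller pseudocount, as TPM and within implied-length bins, which makes 2 genes of the list. Dcn, a matrix proteoglycan gene, was lowest at -0.70.

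Markers of muscle were read beside H19. Of 9 tested striated muscle markers 8 lay above 0, with a median of 0.23 and summed levels of 143.9 FPKM in OIR and 135.8 in the control. Myh3, the embryonic myosin heavy chain, had 728 and 212 reads and a difference of 1.10, and Myh1, a fast myosin heavy chain, 655 and 166 reads and 1.27. Mylpf, a fast muscle light chain, had 378 and 398 reads and a difference of -0.44. Fibroblast markers had a median of 0.10, with 5 of 9 above 0. None of the 11 muscle and 9 fibroblast markers was at 0 reads in both libraries, and the part of these tissues in the H19 value was not tested.

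H19 also holds the hairpin of miR-675. Its mature arms are shown because they are the sequences through which H19 RNA is known to reach other transcripts, with the seed, bases 2 to 8, in capitals (RefSeq, GRCm38.p6, minus strand, chr7:142577112-142577133 and chr7:142577078-142577099).
miR-675-5p: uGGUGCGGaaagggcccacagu
miR-675-3p: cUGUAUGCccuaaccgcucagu
By their RefSeq positions 11 mature microRNAs lie within H19, Meg3 and Rian, and no seed among them is shared. The gene rows of microRNAs inside these spans had 0 reads in both libraries, so the levels above are of the host RNAs and carry no measure of the mature forms.

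**Figure D3:**
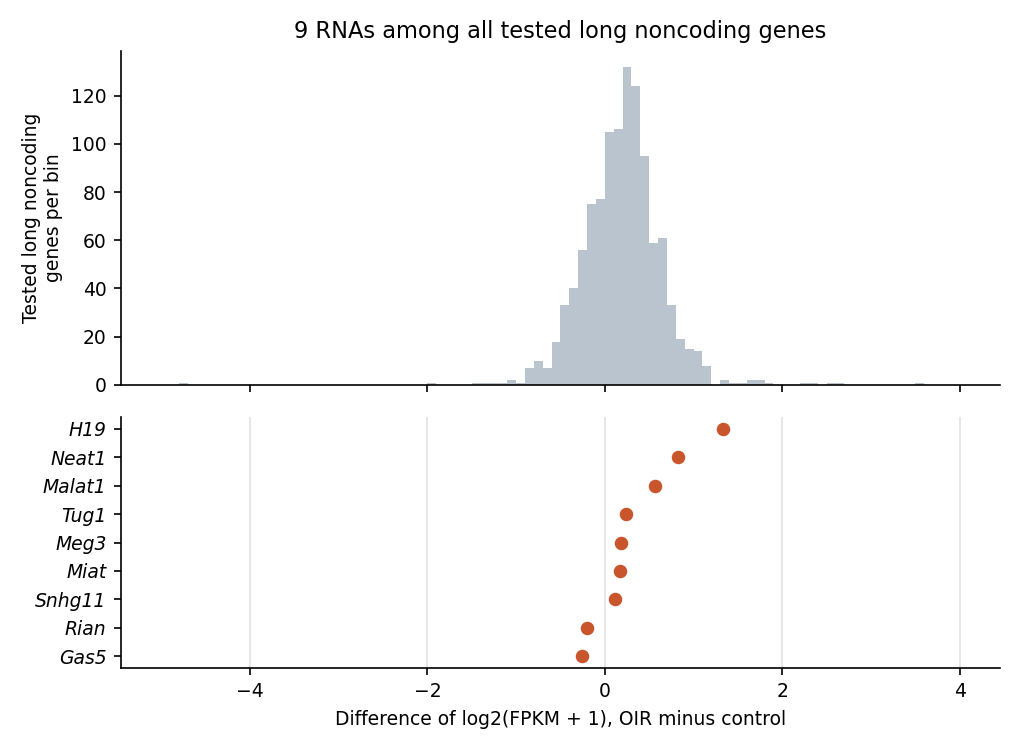
Upper panel, number of tested long noncoding genes per bin of the OIR-minus-control difference of log2(FPKM + 1); lower panel, the difference of each of the 9 RNAs on the same axis, 1 point each. H19 sits in the right tail at 1.33, Gas5 at -0.26 and Rian at -0.20 in the left flank, and Meg3, Miat, Tug1 and Snhg11 within the bulk, on sides of 0 that depend on the length centring or scaling.

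Gas5 and Snhg11 carry snoRNAs in their introns, as Rian does. Gas5 (chr1:161034422-161038539, plus strand), named for its rise in growth-arrested cells, is spliced to an RNA that nonsense-mediated decay removes while it is translated. It counted 2624 reads in OIR against 2422 in the control (173.8 and 207.6 FPKM), so its share of gene-assigned reads was higher in the control. The ratio was 0.837 (0.792 to 0.885), the lowest of the set, and the difference -0.26.

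Snhg11 (chr2:158375638-158386145, plus strand), a host gene known mainly from neurons, had 9005 and 6416 reads (186.9 and 172.4 FPKM). Its ratio was 1.08 (1.05 to 1.12) and its difference 0.12, with a sign that changed under 3 of 11 alternatives, down to -0.10. Reads of Snhg11 per read of Gas5 were 3.43 in OIR and 2.65 in the control, 1.30 times as many (1.22 to 1.38). Reads of Rian per read of Gas5 were 1.04 and 1.00, with a ratio of 1.04 (0.963 to 1.13). Both hosts stood lower in OIR by similar amounts, and this proportion restates that and is no separate result.

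Other snoRNA hosts lay on both sides of 0. Of 23 tested hosts 9 were above 0 and 14 below, the median was -0.13, and none passed 2-fold. Snhg6, Epb41l4aos and Snhg8 were lower than Gas5, at -0.52, -0.50 and -0.42, Snhg12 equalled it at -0.26, and Rcc1, a chromatin-bound exchange factor for Ran, was highest at 0.25. Many hosts, Gas5 among them, start with a run of pyrimidines, the 5′ TOP, which ties translation to mTOR signalling. Genes of the growth-arrest and TOP list, many of them for ribosomal proteins, lay below 0 in 16 of 20 cases with a median of -0.16. Nonsense-mediated decay factors, which act on Gas5 RNA, lay above 0 in 12 of 16 cases with a median of 0.16, led by the kinase gene Smg1 at 0.50.

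The starts of 5 hosts are shown to mark which hold such a run, the first 30 bases of the longest transcript each (GENCODE M21, GRCm38), with the run in capitals. The rule was a C followed by at least 4 pyrimidines, with at most 3 bases before it, on the sense strand, which 6.71% of 55450 genes met.
Gas5: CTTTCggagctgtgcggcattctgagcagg
Snhg12: CCTTTCTCgcttcatccgcggtccctgtct
Snhg8: ggctgcgatccgcctacgagtatgtagttg
Snhg11: agcgcgcgcagccgcagctgggcagacact
Rian: gtcacggacgatgactacgtcactagaggt
Gas5 and Snhg12 hold the run in the transcript shown, and Snhg8 does not, though 1 of its 3 annotated transcripts does. Of 25 annotated Gas5 transcripts 8 hold it, of 10 Snhg12 transcripts 4, and of Snhg11 and Rian none do. A link between the run and the differences was not tested.

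Tug1 (chr11:3639785-3649673, minus strand), first found in the developing retina as an RNA needed for photoreceptors to form, counted 1716 reads in OIR against 1114 in the control (22.7 and 19.1 FPKM). Its ratio was 1.19 (1.10 to 1.28) and its difference 0.24, close to the 0.21 of the median long noncoding gene, and it was 0 within deposited-length bins. Tug1 and Meg3 are known to bind Polycomb proteins, which silence genes through histone methylation. Of 19 genes of such partners 16 lay above 0, none passed 2-fold, and the median was 0.20, with Eed highest at 0.36 and Rbbp7 lowest at -0.11. Rod markers, read here because Tug1 is known from photoreceptors, had a median of 0.03 and cone markers -0.15.

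Genes on the opposite strand overlap the starts of Gas5 and Tug1, and the sources used here do not say whether reads were counted by strand, so reads in the overlap are uncertain. Zbtb37, a zinc finger gene that overlaps Gas5, had 1100 OIR and 467 control reads, a ratio of 1.82 (1.63 to 2.03). Reads of Gas5 per read of Zbtb37 were 2.39 in OIR and 5.19 in the control, so this pair of overlapping genes went in opposite directions. Morc2a, which overlaps Tug1, had 1144 and 703 reads and a ratio of 1.26 (1.14 to 1.38), and the Tug1 to Morc2a proportion was 0.947 of the control's (0.839 to 1.07). Other gene rows inside the spans added little. The 53 rows that lie within the 9 RNAs, 25 of them snoRNAs, held 23 reads in OIR and 18 in the control.

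Levels compared between these RNAs depend on the length used. The length that reads and FPKM imply was within 1 base of the mean length of a gene's annotated transcripts for 73.1% of 21637 genes, while the deposited length was within 1 base of the longest transcript for 81.4%. For Meg3 the implied and deposited lengths are 2703 and 14548 bases, for Malat1 1867 and 6983, for Rian 1406 and 8089, and for Neat1 8268 and 20771. The implied length of Meg3 equals its mean transcript length. Those of Malat1, Rian and Neat1 do not, with means of 2170, 1467 and 6379 bases, nor do those of H19 and Tug1. By FPKM the control order was Malat1, Meg3, Gas5, Snhg11, Rian, Tug1, Miat, Neat1 and H19. Per kilobase of deposited length it became Malat1, Snhg11, Gas5, Meg3, Rian, Tug1, Miat, H19 and Neat1, at 146.2, 69.5, 60.2, 55.3, 19.1, 10.6, 4.33, 3.53 and 3.36 reads per kilobase, scaled to library size. Malat1 kept the top place on both scales, and Meg3 went from place 2 to place 4. A ratio between libraries does not depend on the length.

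**Figure D4:**
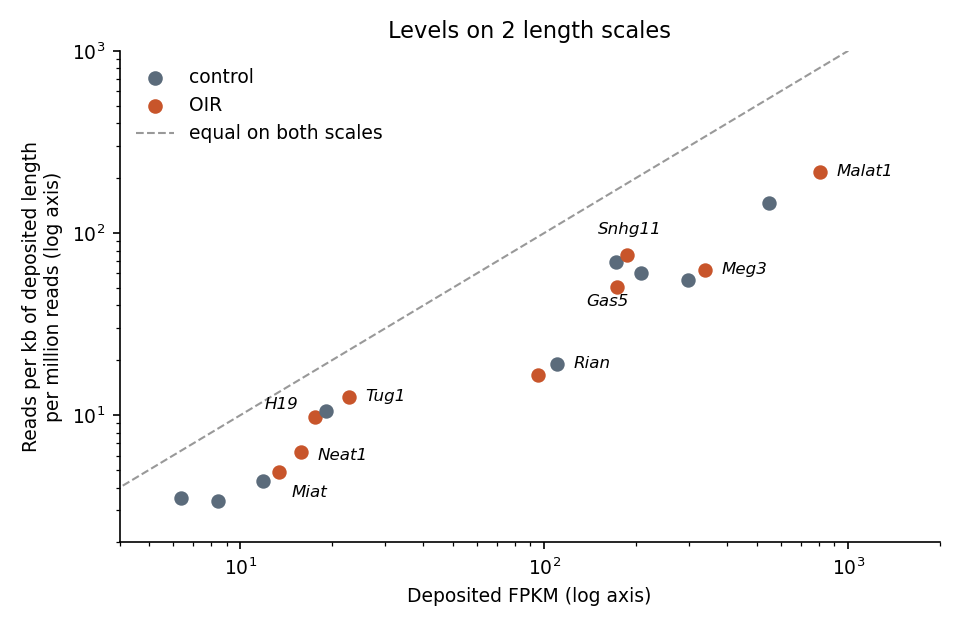
Deposited FPKM against reads per kilobase of deposited length, scaled to library size, for the 9 RNAs, both axes log, grey for the control and orange for the OIR library, with a dashed line where the scales are equal. All points lie below the line, Meg3 and Rian farther from it than H19 and Tug1.

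Differences also went with transcript length across the table. In 20 bins of tested genes by implied length the median difference was -0.09 for 442 to 709 bases and 0.23 for the longest genes, of 5086 bases and more, with 0.15 in the shortest bin. Beside the median of its own bin, Neat1 was 0.60 higher and Malat1 0.44, against 0.83 and 0.56 from 0. H19 was 1.29 higher and Rian and Gas5 stood at -0.30 and -0.22. Meg3, Snhg11, Tug1 and Miat lay within 0.06 of their bin medians. By deposited length the values were 0.55 for Neat1, 0.32 for Malat1, 1.26 for H19, -0.48 for Rian and -0.34 for Gas5. Miat was the lowest of the other 4 on that measure, at -0.12. The same 5 RNAs thus stood farthest from genes of like length on either measure.

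**Figure D5:**
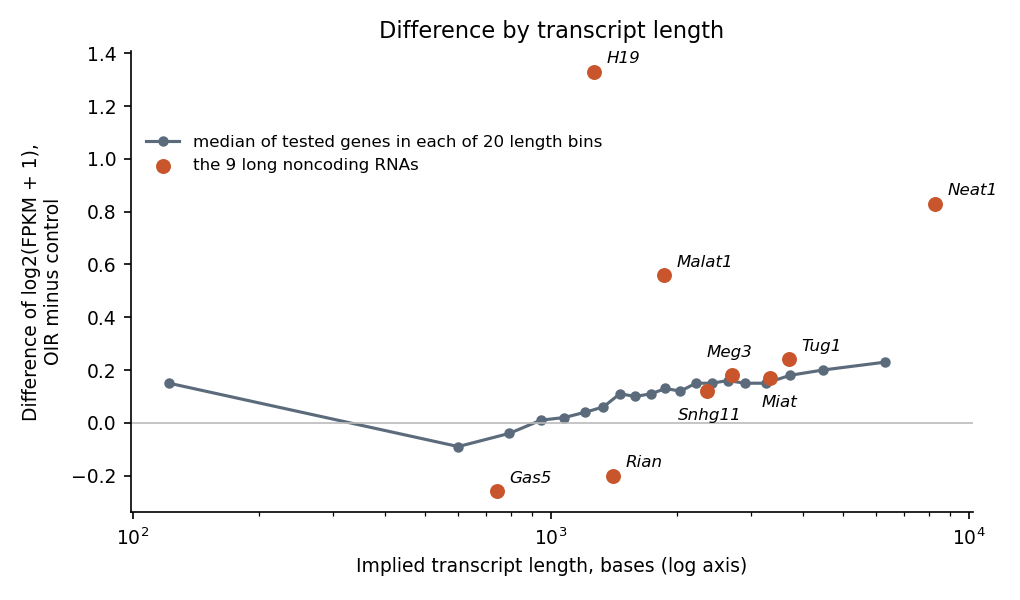
OIR-minus-control difference of log2(FPKM + 1) against implied transcript length on a log axis, with grey points for the medians of tested genes in 20 length bins and orange points for the 9 RNAs. H19, Neat1 and Malat1 lie above the line of medians and Rian and Gas5 below it, while Meg3, Snhg11, Tug1 and Miat lie near it.

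In the authors' deposited table the log2 fold changes of the 9 RNAs ran from -0.40 for Gas5 to 1.33 for H19, with 0.43 for Malat1 and 0.76 for Neat1. The adjusted p there is 7.52e-20 for Malat1, 0.00164 for Neat1 and 0.290 or more for the other 7, and 0 of the 9 are marked as significant. Those p-values set 1 library against 1 and hold no spread between animals.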

How the data were processed

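RNA of 1 control and 1 OIR sample was sequenced with the NEBNext Ultra kit, per the labels' protocol. Bowtie2 2.2.3, TopHat2 2.0.12, HTSeq 0.6.1 and build mm10 are named in the submitters' processing notes. The sources used here do not give settings, annotation release or strand. Per the file headers, the deposited table gives read counts, FPKM, counts scaled by the authors to a library signal, gene length, the authors' log2 fold change and their p-values. No source used here names the tool behind that comparison.

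From these, Python 3.11.15, pandas 2.3.3 and SciPy 1.17.1 gave differences of log2(FPKM + 1), read-share ratios and intervals, tested on simulated counts. Genes had to reach 1 FPKM in at least 1 library, and 5 broken rows were dropped. A 2-fold call needs a difference of at least 1 or at most -1. The members, the 14 gene lists and the 14 marker lists were chosen with earlier results of these data known. Named were all members, list genes past 2-fold or otherwise the 2 highest and 2 lowest, overlapping genes with at least 10 reads, and the 5 most abundant, highest and lowest other long noncoding genes; Rela, Slc25a45, Snhg8, Snhg12, Igf2, Nctc1, Rtl1 and Ddx3y are named in addition, after their values were seen. A gene that the rule takes is not reported here. Alternatives were pseudocounts of 0.1 and 0.01, CPM, median centring, TPM, reads outside crystallin, mitochondrial and ribosomal RNA genes, and the authors' factors. Further ones were filters, folds of 1.5 and 4, and, chosen after seeing the data, length bins. For single members, summing rows with the symbol and adding rows inside the span stood in place of filters and folds.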

Additional observations from a re-analysis of the deposited data

How the results depend on the processing

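H19 was the 1 member past 2-fold under every scaling, pseudocount and filter tried; 2 members passed 1.5-fold and 0 passed 4-fold. The members' median of 0.18 became 0.07 when centred on all tested genes, 0.28 as TPM, 0.07 per reads outside crystallin, mitochondrial and ribosomal RNA genes, 0.04 with the authors' factors, 0.02 within implied-length bins and -0.10 within deposited-length bins, where 3 members stayed above 0. The authors' factors shift all log2 ratios by -0.14, TPM by 0.10 and the reads outside those genes by -0.11. Over the 11 alternatives Malat1 ranged from 0.32 to 0.66, Neat1 from 0.55 to 0.94, Meg3 from -0.10 to 0.28, Rian from -0.48 to -0.10, Gas5 from -0.39 to -0.16, Snhg11 from -0.10 to 0.21 and Miat from -0.12 to 0.26. Of all tested genes 487 were 2-fold higher and 114 lower, against 924 and 254 with a pseudocount of 0.1, 998 and 273 with 0.01, 251 and 27 at an FPKM of 5, 1447 and 409 at 1.5-fold, and 55 and 8 at 4-fold. As CPM 30 were lower and 93.4% of calls were higher, against 81% with FPKM. Of long noncoding genes 36 were higher and 8 lower, against 120 and 35 with a pseudocount of 0.1, 137 and 39 with 0.01, 16 and 4 at an FPKM of 5, 167 and 37 at 1.5-fold, and 5 and 1 at 4-fold. For these, 4 were lower as CPM, and 21 were higher with median centring, 59 as TPM and 23 with the authors' factors. No paired analysis was possible because each group is 1 library, and for the same reason no library could be left out. Depth limits only rows of few reads, such as Nctc1 and Rtl1.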

Other observations

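Other long noncoding RNAs give the scale of the 9. The host of miR-124, Mir124a-1hg, was more abundant than Malat1, at 974.1 and 705.7 FPKM in OIR and control, with a ratio of 1.38 (1.35 to 1.41). Its relative Mir124-2hg stood at 589.5 and 547.1 FPKM. The next in abundance outside the 9 were AI847159, with a difference of -0.39, Cct6a at 0.10 and Firre at 0.27. Firre is an X-linked RNA of nuclear organisation. Cct6a is named for a chaperonin protein, and it counts as long noncoding here only by its GENCODE M21 type, processed transcript. The 27 tested genes on a list of other well-known long noncoding RNAs had a median of 0.05, with 15 above 0, and the sign of that median changed under 5 alternatives. Xist was the 1 past 2-fold in that list.

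Among long noncoding genes with an FPKM of at least 5, the highest differences were those of Gm26917 at 3.56, Fgf2os at 2.63, Gm12802 at 2.51, Gm15983 at 2.24 and Gm15513 at 1.73. Gm26917 was listed here with ribosomal RNA, and Fgf2os, Gm12802 and Gm15983 are antisense to other genes, so that without stated strand their reads are uncertain. The lowest were Xist at -4.78, Gm42808 at -1.94, Mir670hg at -1.38, Gm17750 at -1.10 and Gm10138 at -0.90. H19, at 1.33, lay inside this range.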
